A study of Mus musculus with 6 samples.

Results

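The TRIM family genes were followed in mouse macrophages with and without the lipid carrier E-FABP, which Fabp5 encodes. The members were all genes with a probe set that the array annotation assigns to a single symbol made of Trim and a digit, and each gene was represented by its brightest probe set, averaged over the 6 arrays. This gave 58 genes, with 111 probe sets between them, of 18193 genes named on the array. The 3 E-FABP knockout cultures and the 3 wild-type cultures came from bone marrow of mice described as C57BL/6 and aged 6 to 8 weeks. Marrow cells of both genotypes were grown for 7 days with the growth factor GM-CSF at 20 ng/ml, and all 6 cultures were then kept for 18 h with E0771 mouse breast cancer cells held apart in an insert. Effects of the tumour cells themselves were therefore not analysed here. The cultures are labelled as biological replicates, but separate animals are not mentioned, and p-values measure only the spread between these cultures, which may be technical. RNA was taken from whole cultures, in which fewer cells of a type and less RNA per cell cannot be told apart.

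TRIM proteins are named for their tripartite motif, which joins a RING finger, B-box zinc fingers and a coiled coil. The RING finger makes most of them ubiquitin ligases, and the variable domain at the end of the protein selects what they bind. Some members are induced by interferon and act against viruses or within the pathways that sense viral nucleic acid, while others regulate chromatin, the cytoskeleton or muscle. In mice a group of TRIM genes related to the retroviral restriction factor TRIM5 of primates lies side by side on chromosome 7.

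Fabp5, the targeted gene, read 8.13, 8.31 and 8.39 in the knockout cultures against 14.47, 14.41 and 14.45 in the wild-type cultures (log2 intensity, brighter probe set). The levels separated the arrays by their stated genotype, and the sources used here do not say whether the probes lie in the deleted part of the gene. Median log2 intensities lay between 5.60 and 5.64 on the 6 arrays. The signal at the 3' end minus that at the 5' end of the Actb control, a sign of RNA quality, was 0.39 to 0.44 in knockout and 0.34 to 0.37 in wild type on the log2 scale, and for the Gapdh control it was -0.004 to 0.054 in knockout and -0.001 to 0.087 in wild type. The Actb ranges of the genotypes did not overlap, and the part of that difference in the TRIM results was not tested. All 8 macrophage markers listed, among them Csf1r, Adgre1 and Lyz2, had means above 5.63, the median of all values. So did 9 of 10 dendritic cell and 9 of 11 neutrophil markers. The counts were 0 of 4 B-cell, 0 of 4 NK-cell, 0 of 3 erythroid, 2 of 5 T-cell and 2 of 5 epithelial markers. For plasmacytoid dendritic markers the count was 3 of 4, and for mast-cell and basophil markers 4 of 6. Of the macrophage markers 2 of 8 fell, Fcgr1 with a change of -1.13 and Mertk with one of -0.46 (limma adjusted p = 0.0227 and 0.0234), and the list's median change was -0.06. Dendritic cell markers were higher in knockout by a median of 0.28, with 2 of 10 past the threshold, and fibroblast markers were lower by a median of 0.32, with 3 of 10 past it. Neutrophil markers had a median change of -0.34, with 0 of 11 past it. The unlogged intensities of each list were also summed on each array, a sum in which the brightest markers weigh most. The log2 of that sum was 13.48 to 13.87 in knockout and 13.40 to 13.40 in wild type for dendritic cell markers. It was 14.31 to 14.81 and 14.81 to 15.11 for neutrophil markers, and 8.59 to 8.69 and 9.06 to 9.24 for fibroblast markers. Of the fibroblast markers 4 of 10 had means above the median of all values. The part of these shifts in the TRIM results was not tested.

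Knockout cultures held less RNA of 8 TRIM genes than wild-type cultures, and these were Trim21, Trim30d, Trim30a, Trim34a, Trim12c, Trim12a, Trim6 and Trim14. Their changes lay between -0.95 and -0.40 on the log2 scale, or 1.94-fold to 1.32-fold lower. All 8 belong to the TRIM genes listed here for a known or likely part in antiviral defence and its signalling. That list was drawn up with earlier results of these data known, so this membership is a description. On chromosome 7 lie 7 of the 8. The other 50 genes did not pass, with changes from -0.33 to 0.46. A gene passed where the adjusted p of limma, Benjamini-Hochberg over all probe sets, lay under 0.05.

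By that rule 8 of 58 TRIM genes were lower in knockout, where the same rule called 2.05% of all 18193 genes lower. It called 0 TRIM genes higher, against 2.85% of all genes. At an unadjusted limma p under 0.05, 12 TRIM genes were lower and 11 higher, against 8.15% and 15.2% of all genes. The values of the genotypes did not overlap for 14 TRIM genes with knockout lower and for 11 with knockout higher, against 11.2% and 20.7% of all genes. The median log2 change of the family was -0.02, beside 0.01 for all genes. The calls rest on few arrays. By limma, leaving out knockout replicate 1 left 0 TRIM genes lower (10 at an unadjusted p under 0.05) and 0.044% of all genes. Leaving out wild-type replicate 2 left 0 TRIM genes (11 at an unadjusted p under 0.05) and 0.148% of all genes, so few calls of any kind remained in these fits. Leaving out knockout replicates 2 and 3, each by itself, left 2 and 8 TRIM genes, beside 0.605% and 2.20% of all genes. Leaving out wild-type replicates 1 and 3 left 1 and 5, beside 0.550% and 1.19%. All 8 genes kept a lower knockout mean in each of these fits. With values floored at the 20th percentile 0 TRIM genes and 7 of all genes passed as lower, and 4 TRIM genes and 220 of all genes did once probe sets at the floor on every array were left out.

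**Figure D1:**
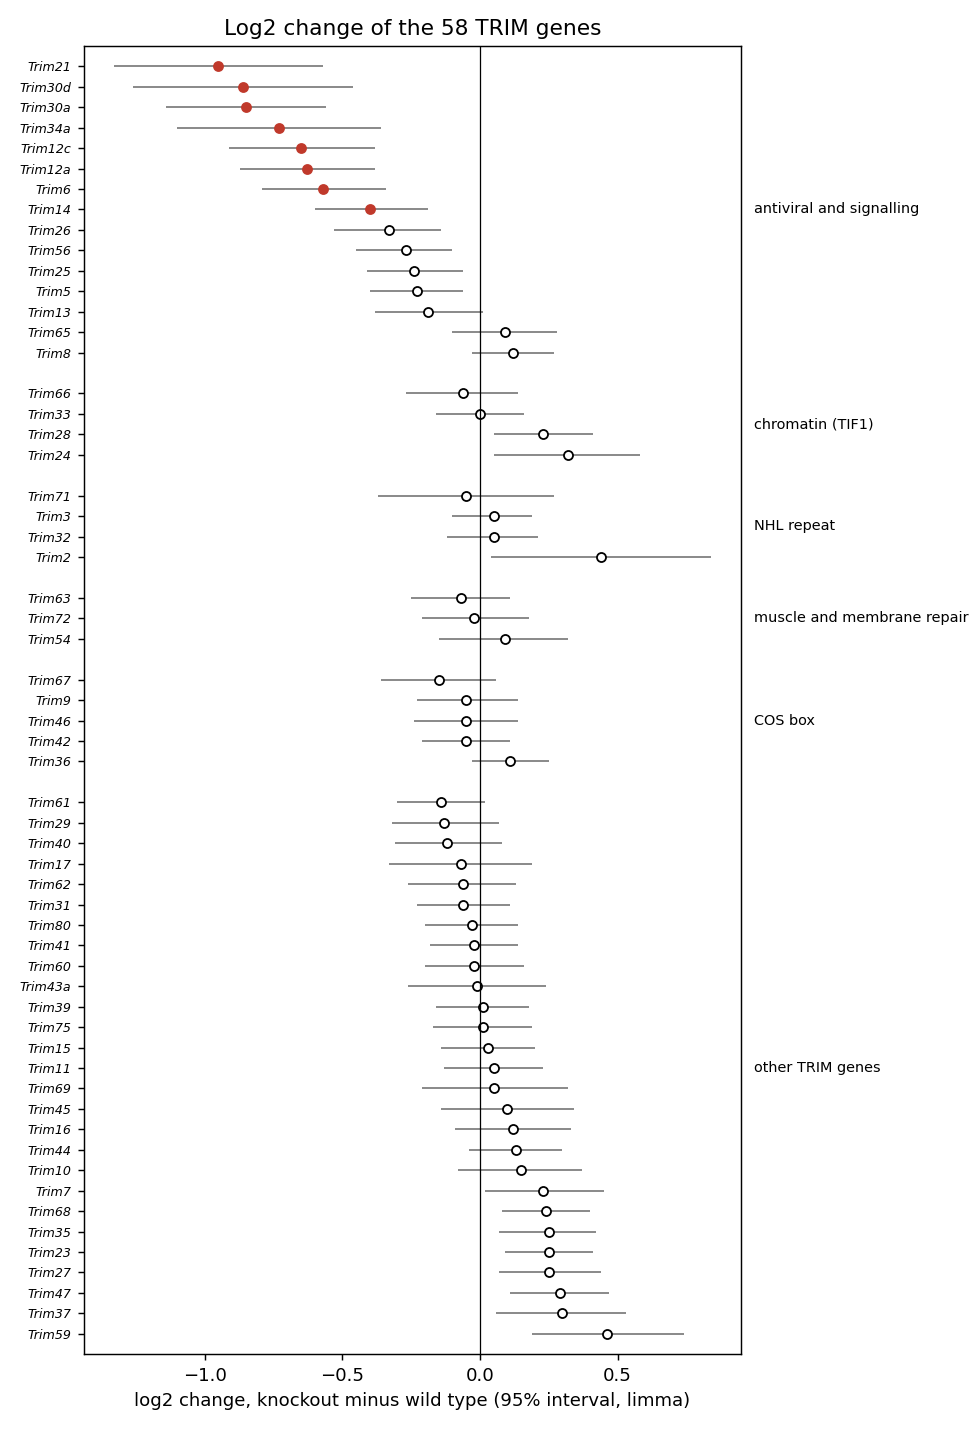
Log2 change of each of the 58 TRIM genes, knockout minus wild type, grouped by role. Points are limma estimates from 3 arrays per genotype with 95% intervals, and filled points passed at an adjusted p under 0.05. The 8 filled points lie between -0.95 and -0.40, all in the antiviral and signalling group, which was listed with earlier results of these data known.

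The promoters of the lower genes are shown because the question of a shared sequence arises where several members were called lower. Promoter windows of 300 bases, reaching from 250 bases before the annotated start to 50 after it, were taken from RefSeq (GRCm38.p6), and 47 of the 58 genes had one. They were searched on both strands for GAAA, any 2 bases and GAAA again, the paired half-sites of the interferon-stimulated response element, which reads TTTC, any 2 bases and TTTC where it lies on the opposite strand. Of the 7 lower genes with a window, 6 held a match, while Trim6 held none. Trim14 had no window. Stretches around the matches follow for those 6 genes, 5′ to 3′ along the gene's own strand, with the matches in capitals. They are Trim21 (chr7:102565433-102565514, minus strand), Trim30d (chr7:104507836-104507935, minus strand), Trim30a (chr7:104465175-104465274, minus strand), Trim34a (chr7:104244422-104244506, plus strand), Trim12c (chr7:104353324-104353423, minus strand) and Trim12a (chr7:104315446-104315530, minus strand).
Trim21: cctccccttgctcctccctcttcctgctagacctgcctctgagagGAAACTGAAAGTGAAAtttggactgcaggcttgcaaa
Trim30d: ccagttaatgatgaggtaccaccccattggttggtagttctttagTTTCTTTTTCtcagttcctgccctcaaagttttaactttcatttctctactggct
Trim30a: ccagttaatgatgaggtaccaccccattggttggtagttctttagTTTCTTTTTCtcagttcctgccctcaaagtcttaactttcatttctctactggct
Trim34a: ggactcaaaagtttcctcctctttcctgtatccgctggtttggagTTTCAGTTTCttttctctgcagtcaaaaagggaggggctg
Trim12c: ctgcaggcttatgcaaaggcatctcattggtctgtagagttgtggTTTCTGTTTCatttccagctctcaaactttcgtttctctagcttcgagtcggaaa
Trim12a: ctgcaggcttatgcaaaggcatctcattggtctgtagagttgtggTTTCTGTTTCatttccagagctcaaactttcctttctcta
Trim21 held 2 overlapping matches in tandem, and the other 5 genes held 1 match each in the stretch shown. Trim30a also held a match in the window of its second annotated start. The stretches of Trim30a and Trim30d differ at 1 of 100 bases and those of Trim12a and Trim12c at 3 of 85, so these genes share their sequence and do not count as separate cases.

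Among the 40 genes that did not pass and had a window, 3 held a match, and these were Trim2, Trim5 and Trim26. Over the array's TRIM genes that is 9 of 47 genes, while 3.99% of 27025 genes with a window of this length held the motif in any of their windows. Trim2 has 5 annotated windows and held the motif in 1. The gamma-activated site, TTCNNNGAA, which reads the same on both strands, stood in the windows of 0 of 7 lower genes and 4 of 40 genes that did not pass, against 9.55% of all genes. A match is a run of letters and was not tested for binding.

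**Figure D2:**
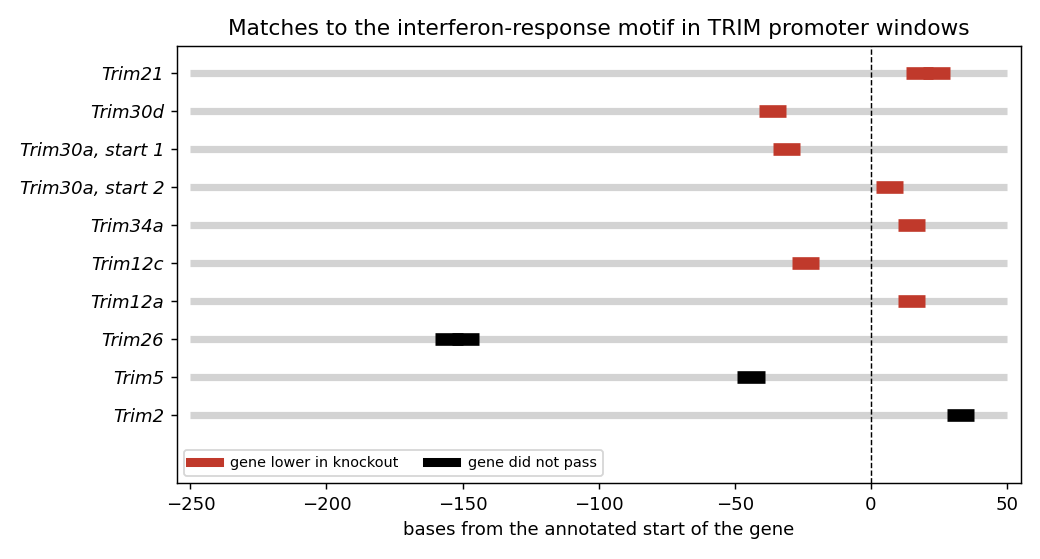
Positions of the matches to the interferon-stimulated response element motif in the promoter windows of TRIM genes, in bases from the annotated start. Grey bars are the windows, red marks belong to the genes lower in knockout and black marks to the genes that did not pass. The matches of the lower genes begin between position -41 and position 19.

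Trim21 codes for a cytosolic antibody receptor that marks antibody-coated virus for the proteasome. It read 8.52, 8.29 and 8.95 in knockout against 9.45, 9.81 and 9.35 in wild type (log2 intensity). The highest knockout culture lay below the lowest wild-type culture. The fall of 0.95 had an SE of 0.17 (limma adjusted p = 0.0246). Its second probe set showed a change of -0.70 with an SE of 0.10 (limma adjusted p = 0.0177).

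The Trim30 genes are found in rodents, and in the mouse Trim30a is induced by inflammatory signals and restrains signalling from Toll-like receptors. Trim30a read 11.35, 11.01 and 11.50 in knockout against 12.00, 12.29 and 12.13 in wild type. It fell by 0.85 (SE 0.13, limma adjusted p = 0.0191), with no overlap between the genotypes. Trim30d, its neighbour and close relative, read 10.88, 10.38 and 11.20 in knockout against 11.60, 11.83 and 11.60 in wild type. It fell by 0.86 (SE 0.18, limma adjusted p = 0.0358), and the knockout cultures were spread more widely than the wild-type cultures (SD 0.41 and 0.13, n = 3 each). The call of Trim30d ended with trend and robust eBayes (limma adjusted p = 0.117). A probe set that the annotation assigns to both genes had a change of -1.01 with an SE of 0.14 (limma adjusted p = 0.0171). Near-identical copies can share probes, so the change of each Trim30 gene by itself is uncertain.

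Trim34a, related to a human gene that helps TRIM5 restrict retroviruses, read 9.99, 9.75 and 10.39 in knockout against 10.68, 11.04 and 10.62 in wild type. The genotypes did not overlap, and the fall was 0.73 (SE 0.16, limma adjusted p = 0.0444). Its other probe set, which lies under the median of all values, had a change of -0.27 and did not pass (limma adjusted p = 0.147). The call ended with trend and robust eBayes (limma adjusted p = 0.101) and with the mean of its probe sets (-0.50, limma adjusted p = 0.0608). The 2 probe sets assigned to both Trim34a and Trim34b had changes of -0.63 and -0.58, with limma adjusted p of 0.0462 and 0.0494. Trim34b had no probe set of its own and was not analysed here.

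Trim12a and Trim12c are the rodent relatives of primate TRIM5, and in mouse cells Trim12c can promote interferon signalling. Trim12c read 9.28, 9.10 and 9.52 in knockout against 9.86, 10.13 and 9.86 in wild type. It fell by 0.65 (SE 0.12, limma adjusted p = 0.0257), and its second probe set had a change of -0.66 (SE 0.12, limma adjusted p = 0.0266). Trim12a read 8.10, 7.79 and 8.24 in knockout against 8.65, 8.74 and 8.62 in wild type, so knockout replicate 2 was the lowest culture and the wild-type cultures lay close together. Trim12a fell by 0.63 (SE 0.11, limma adjusted p = 0.0238), while its dimmer probe set had a change of -0.25 and did not pass (limma adjusted p = 0.0729).

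Trim6, whose human protein builds free ubiquitin chains that activate the kinase IKK-epsilon, read 6.00, 6.09 and 6.31 in knockout against 6.64, 6.85 and 6.60 in wild type. It fell by 0.57 (SE 0.10, limma adjusted p = 0.0239), with knockout replicate 1 the lowest culture, while its dimmer probe set had a change of -0.32 and did not pass (limma adjusted p = 0.113). Trim14, which lacks the RING finger and acts as an adaptor of the sensor pathways of MAVS and cGAS, read 9.18, 9.11 and 9.31 in knockout against 9.48, 9.75 and 9.56 in wild type. The genotypes did not overlap. Trim14 fell by 0.40 (SE 0.09, limma adjusted p = 0.0469), the change nearest to the threshold among the 8, and its second probe set did not pass (-0.31, limma adjusted p = 0.284). With the mean of its probe sets the call of Trim14 ended (-0.36, limma adjusted p = 0.113).

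**Figure D3:**
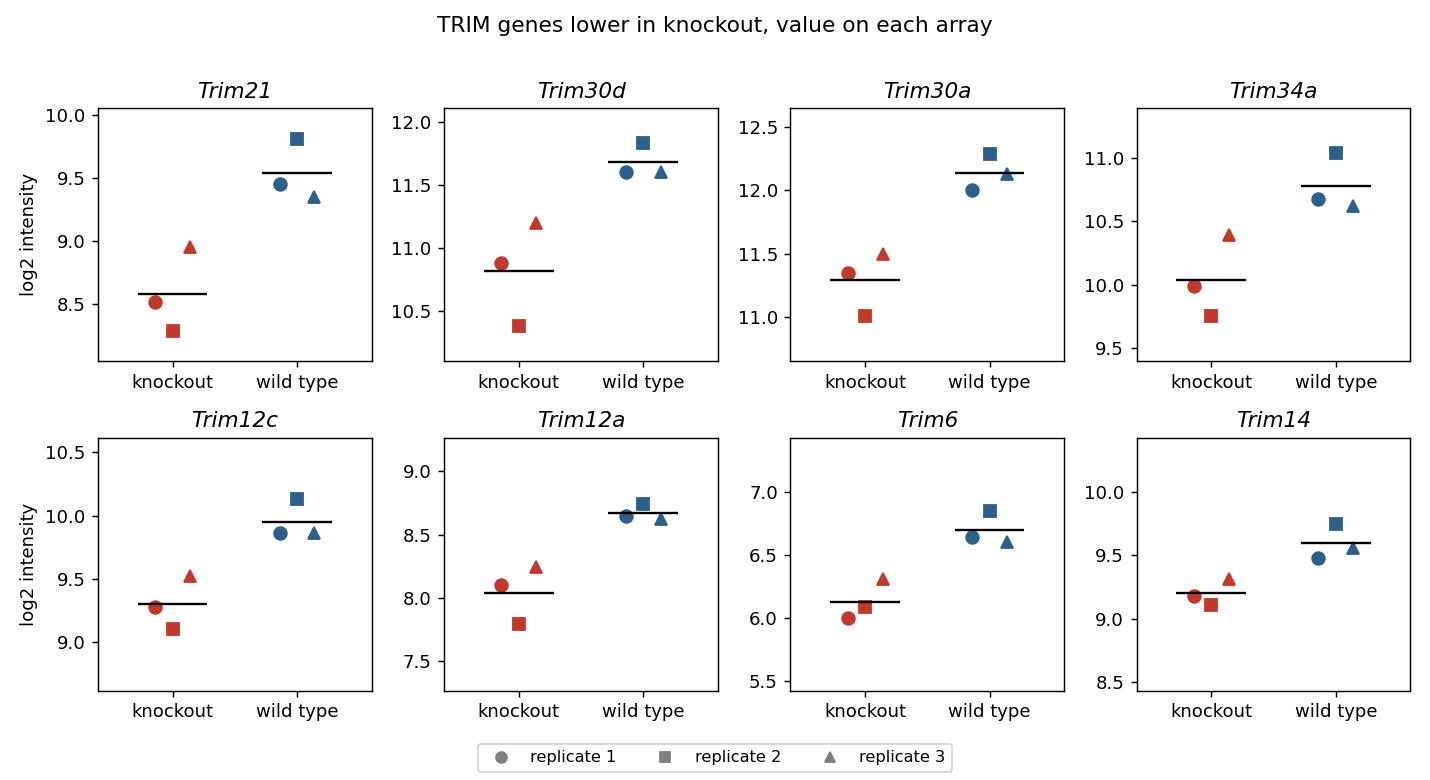
Log2 intensity on each array of the 8 TRIM genes lower in knockout, with knockout on the left and wild type on the right of each panel. Symbols mark the replicate, lines are means of 3 arrays, and every panel spans 2 log2 units. In each panel the 3 knockout values lie below the 3 wild-type values.

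The 8 genes were called for lower knockout values on these arrays, so the opposite signs of the genotypes follow from the call. The mean deviation of the 8 from the gene means was -0.37, -0.59 and -0.10 on knockout replicates 1, 2 and 3. It was 0.27, 0.53 and 0.26 on wild-type replicates 1, 2 and 3 (log2). Knockout replicate 2 was the lowest and replicate 3 the highest knockout array for 7 of the 8, Trim6 being the exception, and 67.0% of the 373 genes called lower on the whole array had that order, as did 19.2% of all genes. Wild-type replicate 2 was the highest wild-type array for 8 of 8, beside 77.2% of the 373 genes and 34.8% of all genes. Interferon-stimulated genes of a short list (Ifit1, Ifit2, Ifit3, Mx1, Oasl2, Rsad2, Stat2 and Usp18), all 8 of them lower in knockout with a median change of -1.92, lay at -0.81, -1.80 and -0.19 on the knockout arrays and at 0.80, 1.23 and 0.77 on the wild-type arrays. The same rule called 2.05% of all genes lower. Leaving out knockout replicate 1, or wild-type replicate 2, left 0 of the 8 interferon-stimulated genes past the threshold, and leaving out wild-type replicate 1, or 3, left 3. With trend and robust eBayes 1 passed. Neutrophil markers lay at -0.13, -0.50 and 0.04 on the knockout arrays and at 0.19, 0.09 and 0.31 on the wild-type arrays. For dendritic cell markers the deviations were 0.09, 0.41 and 0.02 in knockout and -0.23, -0.21 and -0.08 in wild type. Of the knockout arrays, replicate 2 stood farthest from 0 for the 8 TRIM genes and in each of these 3 lists. The same held for macrophage, plasmacytoid dendritic, erythroid and epithelial markers. It did not hold for fibroblast, mast-cell and basophil, T-cell, B-cell or NK-cell markers. In the fibroblast list replicate 2 was the knockout array nearest to 0, with -0.17 against -0.27 for replicate 1 and -0.20 for replicate 3. The part of cell composition in the TRIM falls was not tested. The 50 other TRIM genes had mean deviations from -0.03 to 0.05 on the 6 arrays. They were split off by the same call and hold changes of both signs, so that contrast was fixed in advance.

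**Figure D4:**
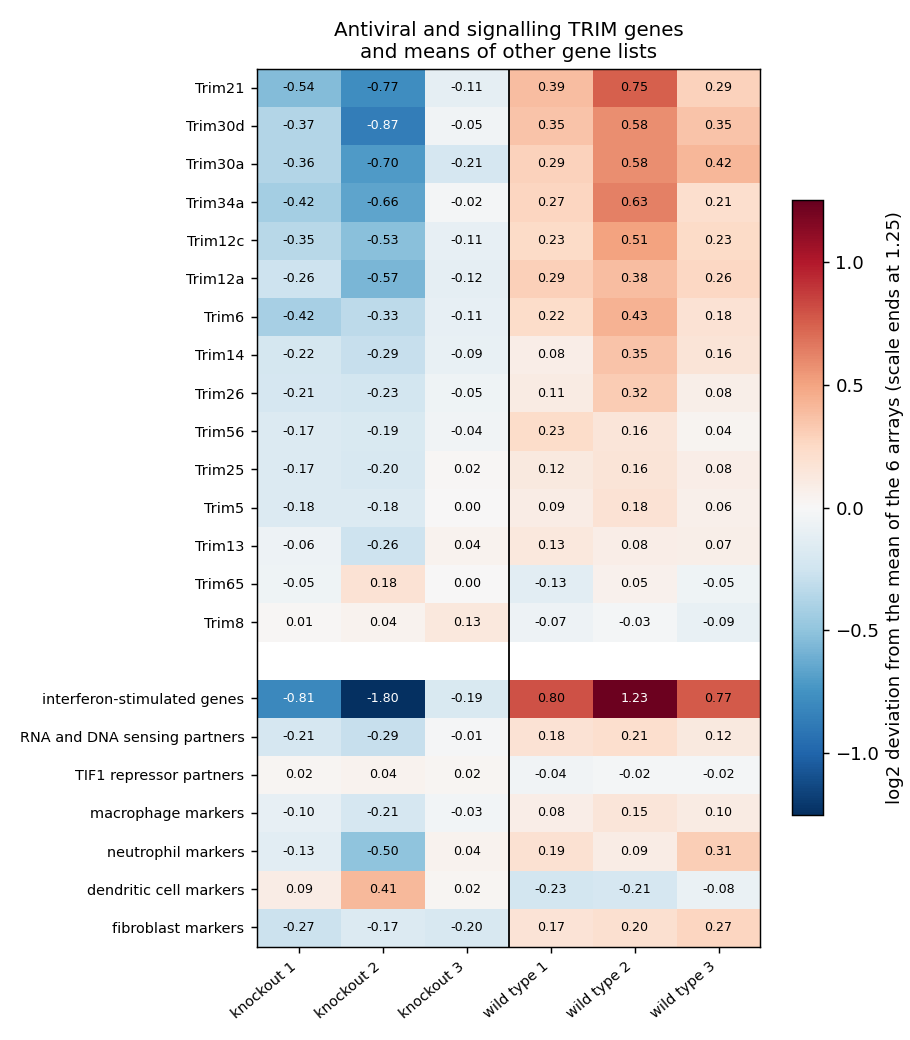
Log2 deviation of each array from the mean of the 6 arrays, for the 15 antiviral and signalling TRIM genes (upper rows) and for the means of other gene lists (lower rows), with knockout arrays on the left. Knockout replicate 2 is the lowest array for interferon-stimulated genes (-1.80, beyond the end of the colour scale) and for most TRIM rows, and wild-type replicate 2 is the highest (1.23).

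Not every antiviral member passed. Of 19 TRIM genes listed for antiviral defence and signalling 15 had a probe set of their own. Among these 15, 8 fell, 0 rose and 7 did not pass, beside 2.05% of all genes lower and 2.85% higher. The median change of the 15 was -0.40. The list was drawn up with earlier results of these data known, so its count is a description. Trim26, tied to the turnover of the interferon factor IRF3, read 8.20, 8.18 and 8.36 in knockout against 8.52, 8.73 and 8.49 in wild type (change -0.33, SE 0.09, limma adjusted p = 0.0701). Trim56, which supports signalling by STING and by Toll-like receptors, read 7.69, 7.67 and 7.82 in knockout against 8.09, 8.02 and 7.90 in wild type (change -0.27, SE 0.08, limma adjusted p = 0.0853). Both had knockout values wholly below the wild-type values, as did Trim5 (-0.23, limma adjusted p = 0.135) and Trim13, a ligase anchored in the endoplasmic reticulum (-0.19, limma adjusted p = 0.262). Trim65, a ligase of the RNA sensor MDA5, had a change of 0.09 with a 95% interval from -0.10 to 0.28. Trim8, a regulator of cytokine signalling, had a change of 0.12 with an interval from -0.03 to 0.27.

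Trim25, the ligase that modifies RIG-I and also attaches ISG15, gave different answers by probe set. The brightest probe set read 11.60, 11.57 and 11.79 in knockout against 11.89, 11.93 and 11.85 in wild type, a change of -0.24 that did not pass (SE 0.08, limma adjusted p = 0.128). A second one had a change of -0.23 (limma adjusted p = 0.141). The third read 9.49, 9.11 and 9.84 in knockout against 10.35, 10.48 and 10.32 in wild type, a change of -0.90 that passed (SE 0.16, limma adjusted p = 0.0238). The third set's change was lower by 0.67 than that of either other set (exact permutation test, two-sided, p = 0.1 in both cases, the smallest that 3 arrays against 3 allow). All 3 sets had knockout values below wild-type values, and the sources used here do not say which transcripts each set reads.

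On chromosome 7 the order of genes was taken from the RefSeq annotation. From Trim6 to Trim30d stand 11 protein-coding genes in a row, of which 1 is not a TRIM gene. Of the block's TRIM genes 7 had a probe set of their own. Trim6, Trim34a, Trim12a, Trim12c, Trim30a and Trim30d fell, and Trim5, which lies among them, did not pass. Trim34b, Trim30b and Trim30c had no probe set of their own. A probe set assigned to both Gm38525 and Trim30b had a change of -0.63 (SE 0.13, limma adjusted p = 0.0356). Trim21 lies apart from this block, with 98 coding genes other than TRIM genes between Trim21 and Trim30d, most of them olfactory receptor genes. Of these, 11 were measured, all 11 at or under the median of all values, with changes from -0.18 to 0.17 and 0 past the threshold (lowest limma adjusted p = 0.295). Trim68, next to Trim21 among the TRIM genes of the chromosome, had a change of 0.24 (limma adjusted p = 0.0986), and Trim3, Trim66 and Trim72 had changes of 0.05, -0.06 and -0.02. Of the 13 measured TRIM genes of chromosome 7, 7 fell, and of the 45 elsewhere 1 fell, beside 2.05% of all genes.

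**Figure D5:**
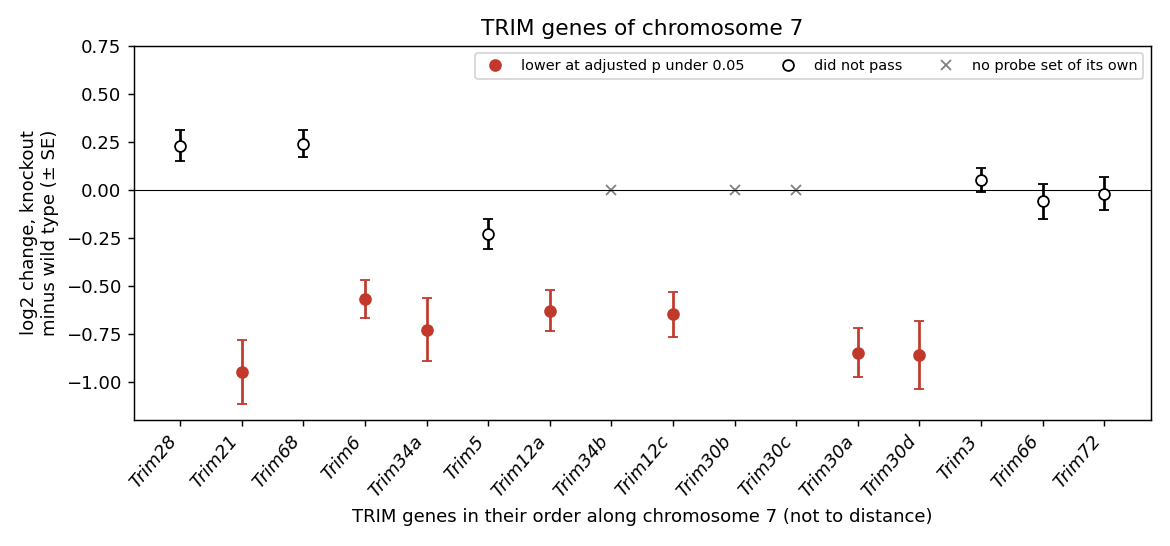
Log2 change, knockout minus wild type, with the limma SE, of the TRIM genes of chromosome 7 in their order along the chromosome. Distances are not drawn, filled red points passed at an adjusted p under 0.05, and crosses mark genes without a probe set of their own. The 7 red points lie between -0.95 and -0.57.

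The chromatin members of the TIF1 group did not pass. Trim28, the corepressor that KRAB zinc finger proteins recruit to silence retroelements, read 9.92, 9.94 and 9.83 in knockout against 9.73, 9.53 and 9.75 in wild type (change 0.23, SE 0.08, limma adjusted p = 0.150). The knockout values lay above the wild-type values. Trim24, a histone reader and nuclear receptor cofactor, had a change of 0.32 (SE 0.12, limma adjusted p = 0.166) with overlapping genotypes. Its dimmer probe sets had changes of 0.04 and -0.04. Trim33, which acts in the SMAD pathway, had a change of 0.00 with a 95% interval from -0.16 to 0.16 in its brightest probe set. Another Trim33 probe set above the median of all values had a change of 0.31 (limma adjusted p = 0.172). In that probe set the knockout values lay above the wild-type values. Among 11 partners of these proteins, Cbx5, which codes for the heterochromatin protein HP1-alpha, rose by 0.62 (SE 0.09, limma adjusted p = 0.0186), 0 fell and 10 did not pass, with a median of -0.02. By the same rule 2.85% of all genes were higher and 2.05% lower. Cbx5 read 7.46, 7.61 and 7.33 in knockout against 6.97, 6.75 and 6.83 in wild type. That call was lost when knockout replicate 1 was left out, and likewise for wild-type replicate 2. Averaging the gene's probe sets gave a change of 0.16 that did not pass (limma adjusted p = 0.169).

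In the remaining role groups 0 genes passed. Among the NHL-repeat genes Trim2, a neuronal ubiquitin ligase, read 6.68, 7.12 and 6.31 in knockout against 6.26, 6.11 and 6.41 in wild type (change 0.44, SE 0.18, limma adjusted p = 0.202), with knockout replicate 2 the highest array and overlapping genotypes. Trim3 and Trim32 had changes of 0.05 each, and Trim71, an RNA-binding gene of stem cells, one of -0.05. The muscle and membrane repair genes Trim54, Trim63 and Trim72 had changes of 0.09, -0.07 and -0.02 and all lay under the median of all values. Of the COS-box genes, which bind microtubules, Trim67 had a change of -0.15 and Trim36 one of 0.11 (limma adjusted p = 0.431 and 0.355), while Trim42 and Trim46 had changes of -0.05 each (limma adjusted p = 0.745 and 0.811). In all, 19 of the 58 TRIM genes had means at or under the median of all values, where the size of a change can be understated, and all 8 that fell lay above it.

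The other 27 TRIM genes have varied or little known roles, and 0 passed. Trim59, with the largest positive change of the 58, a membrane-anchored ligase that is abundant in dividing cells, read 6.35, 6.80 and 6.31 in knockout against 6.01, 5.97 and 6.09 in wild type (change 0.46, SE 0.12, limma adjusted p = 0.0708). Its dimmer probe set had a change of -0.08 with overlapping genotypes (limma adjusted p = 0.745). Trim47 had a change of 0.29 (SE 0.08, limma adjusted p = 0.0838), and Trim23, which carries a GTPase domain of the ARF kind, one of 0.25 (SE 0.07, limma adjusted p = 0.0882). In the probe set used for each of these 3 genes the knockout values lay above the wild-type values. The median of these 27 genes was 0.05.

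TRIM proteins that bear other names were set beside the family. Pml, the scaffold of nuclear bodies, read 8.24, 7.85 and 8.56 in knockout against 8.85, 9.05 and 8.80 in wild type (change -0.68, SE 0.16, limma adjusted p = 0.0506). Mefv, which codes for the inflammasome sensor pyrin, read 7.42, 6.91 and 7.85 in knockout against 8.30, 8.32 and 8.04 in wild type (change -0.83, SE 0.20, limma adjusted p = 0.0563). Neither passed, and neither gene had a knockout array as high as its lowest wild-type array. The microtubule-binding Mid1 and Mid2, both under the median of all values, had changes of -0.09 and 0.23 and did not pass.

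RNA of genes for the sensors and signalling proteins on which antiviral TRIM proteins act was lower in part. The threshold was passed by 5 of the 16 measured, all lower, beside 2.05% of all genes lower and 2.85% higher. The median change of the 16 was -0.19. Irf7, the factor that amplifies interferon production, read 8.57, 7.76 and 9.05 in knockout against 10.00, 10.38 and 9.87 in wild type and fell by 1.62 (SE 0.28, limma adjusted p = 0.0227). The RNA sensors Ifih1, which codes for MDA5, and Ddx58, which codes for RIG-I, the substrate of Trim25, fell by 1.20 (SE 0.19) and 1.07 (SE 0.20), with limma adjusted p of 0.0207 and 0.0269. Rnf135, a ligase that also acts on RIG-I, fell by 0.54 (SE 0.11, limma adjusted p = 0.0343), and the DNA sensor Cgas, which Trim14 stabilises, fell by 0.57 (SE 0.09, limma adjusted p = 0.0207). The adaptors Mavs and Sting1 had changes of 0.28 and 0.26 and did not pass (limma adjusted p = 0.113 and 0.0882). Leaving out either wild-type replicate 1, wild-type replicate 2 or knockout replicate 1 left 0 past the threshold, and the other 3 arrays left 4 to 6.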

How the data were processed

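RNA of 3 knockout and 3 wild-type cultures was measured on Affymetrix mouse arrays, 1 array per culture. The authors deposited log2 expression values per probe set. GCRMA 2.30.0, RMA, affy 1.36.1 and limma 3.14.4 are listed in the submitters' processing notes, which do not say whether GCRMA or RMA made the values. Of 45101 probe sets 64 controls were left out. The other 45037 were fitted with limma 3.58.1 (lmFit and eBayes, R 4.3.3), knockout minus wild type without a block, with Benjamini-Hochberg adjustment over all of them, and an adjusted p under 0.05 passed. Of these probe sets 34945 had 1 gene symbol, 932 several and 9160 none, and the brightest single-symbol probe set stood for each gene. The number of arrays limits the precision. On simulated data of 45037 probe sets for this comparison, 55.2%, 92.5% and 100% of log2 changes of 0.5, 1 and 2 were recovered, with 4 false calls among all others. The simulated noise was drawn for each probe set by itself, so deviations that genes share on an array were not covered.

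The rule for names took TRIM genes that passed, measured antiviral members, up to 4 genes of each other role with the smallest p, partner genes that passed (up to 6 a list) and TRIM genes whose probe sets disagreed. Genes named outside it, such as Mavs, Sting1, Pml, Mefv, Mid1 and Mid2, were chosen after their values were seen. Members and lists were chosen with earlier results of these data known. Promoter sequences are RefSeq's (GRCm38.p6). Same-numbered replicates did not deviate together (correlations -0.064, -0.043 and -0.132), so the numbers were not taken as pairs. Alternatives covered normalization, dim probe sets, a floor, the variance model, array weights, the replicate block, shared probe sets, the probe set per gene, the threshold and each array left out. Any probe set of a gene and a second floor were chosen after seeing the data.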

Additional observations from a re-analysis of the deposited data

How the results depend on the processing

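No value past the threshold changed sign under the alternatives run. The 8 TRIM genes lower in knockout were 0 with the floor, 4 with the floor once probe sets at the floor on every array were left out (chosen after seeing the data), and 0 to 8 with 1 array left out. With the replicate number as a block the count was 0 (12 lower at an unadjusted limma p under 0.05). Lower calls over all genes were 23 with the block and 7 with the floor, against 373 without either. The count was 10 with quantile normalization or with bright probe sets only, and 9 with any probe set of a gene. It was 8 with trend and robust eBayes, where Trim25 and Trim26 passed and Trim30d and Trim34a did not, and 7 with gene means, where Trim25 passed and Trim14 and Trim34a did not. The 0 TRIM genes higher became 2 with bright probe sets only, 2 with trend and robust eBayes, 4 at an adjusted p under 0.1 and 0 to 1 with 1 array left out. The median TRIM change, -0.02, was -0.03 to 0.02 with 1 array left out, above 0 without wild-type replicate 2, and 0.01 with bright probe sets only. Among TRIM genes that did not pass, Trim9, Trim54, Trim66, Trim71 and Trim72 changed sign under some alternatives, Trim71 to 0.13 without wild-type replicate 2. Trim33, at 0.00 in the main fit, took both signs, from -0.03 without knockout replicate 2 to 0.10 with gene means. The 11 TRIM genes without overlap and higher in knockout were 7 with gene means and 12 to 18 with 1 array left out. The 5 lower sensing partners were 0 with the floor, 0 with the replicate block and 0 to 6 with 1 array left out, and the 0 higher became 1 with bright probe sets only and 1 at an adjusted p under 0.1. The 1 higher TIF1 partner became 2 with bright probe sets only, 2 with trend and robust eBayes, 2 with array weights, 2 at an adjusted p under 0.1, 0 with the floor, 0 with the replicate block, 0 with gene means and 0 to 1 with 1 array left out. For TRIM proteins with other symbols, 0 lower became 1 with quantile normalization, 1 with median centring, 1 without shared probe sets, 1 with gene means, 2 with bright probe sets only, 2 with array weights, 2 at an adjusted p under 0.1 and 0 to 2 with 1 array left out, and 0 higher became 1 at an adjusted p under 0.1. The 8 lower interferon-stimulated genes were 0 with the floor, 0 with the replicate block, 1 with trend and robust eBayes and 0 to 8 with 1 array left out. With the floor the prior degrees of freedom of eBayes were 0.469, against 5.04 without it. The cause was not tested for any alternative. Fits without 1 array hold fewer samples.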
